A study of Homo sapiens with 12 samples.

Results

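Interleukin 6 (IL-6) and its relatives are secreted cytokines that share a receptor chain, gp130, encoded by IL6ST. Each cytokine reaches gp130 through further chains, such as IL6R for IL-6, LIFR for LIF and, together with CNTFR, for CLCF1, and OSMR for oncostatin M. The receptor complex activates Janus kinases, which phosphorylate the transcription factor STAT3, and STAT3 in turn induces SOCS3, an inhibitor that binds gp130 and ends the signal. In breast carcinoma cells this axis is known as an autocrine and paracrine survival signal, and IL6 is also a classical NF-κB target gene.

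The genes described here are 10 members of this axis chosen by name: the cytokine genes IL6, LIF, IL11 and CLCF1, the receptor genes IL6R, IL6ST, OSMR and LIFR, the transcription factor gene STAT3 and the feedback inhibitor gene SOCS3. All 10 were present among the 17013 genes measured. By the GRCh38 annotation IL6 (ENSG00000136244) lies at chr7:22725884-22732002, LIF (ENSG00000128342) at chr22:30240453-30246759, IL11 (ENSG00000095752) at chr19:55364382-55370463, CLCF1 (ENSG00000175505) at chr11:67364168-67374177 and IL6R (ENSG00000160712) at chr1:154405193-154469450. Chromosome 5 carries IL6ST (ENSG00000134352, chr5:55935095-55995022) and also LIFR (ENSG00000113594, chr5:38474668-38608354) and OSMR (ENSG00000145623, chr5:38845858-38945596), and chromosome 17 carries STAT3 (ENSG00000168610, chr17:42313324-42388540) and SOCS3 (ENSG00000184557, chr17:78356778-78360077). The data are mRNA-seq of HCC1806 cells, a human triple-negative breast cancer (TNBC) line, with 12 libraries in 4 groups of 3. The cells carried either a non-targeting control siRNA (siNT) or a pool of 4 siRNAs against MLK4 (siMLK4), a mixed-lineage kinase encoded by MAP3K21. By the methods, a day after transfection they received 1 μM doxorubicin, an anthracycline that poisons topoisomerase II, or none. By the same account RNA was taken 24 h later. The groups are called siNT vehicle, siNT doxorubicin, siMLK4 vehicle and siMLK4 doxorubicin. The labels name DMSO as the vehicle and mark these libraries as time 0, the methods call the cells untreated, and elsewhere they are described as given DMSO alongside the doxorubicin treatment. Whether vehicle and doxorubicin cells were harvested at the same time is therefore not settled. All libraries came from 1 cell line, and doxorubicin was given at 1 dose for 24 h. All cells were transfected, and the siRNAs were given only as a pool. The labels of replicates 2 and 3 of siMLK4 doxorubicin end in the same library suffix, whereas every other library has its own. Their values differ, and they were used as separate libraries. Leaving out either one gave 3 members called with doxorubicin in siMLK4 cells and 3 for knock-down with doxorubicin, the numbers found with both. Over all genes the calls moved. For knock-down with doxorubicin they were 452 higher and 498 lower with both. Without replicate 2 they were 359 and 452, and without replicate 3 they were 569 and 552. For doxorubicin in siMLK4 cells the calls were 2147 and 1802 with both, 1906 and 1602 without replicate 2 and 2416 and 2003 without replicate 3. Each library held between 16759025 and 19302248 reads in genes.

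The siRNA label was checked first on its target. MAP3K21 in siNT cells had 553.1, 669.6 and 673.6 normalized reads (reads divided by the size factor of the library) with vehicle and 757.6, 856.1 and 771.6 with doxorubicin. In siMLK4 cells it had 103.2, 94.66 and 88.65 normalized reads with vehicle and 112.8, 138.4 and 94.35 with doxorubicin. All 6 siMLK4 libraries lay below all 6 siNT libraries, which left 15.1% of the control mean with vehicle and 14.5% with doxorubicin. The cell type label was checked with markers. All 8 basal epithelial markers examined were measured, led by KRT5 with a mean of 17200 normalized reads. All 6 luminal and hormone receptor markers were measured too, led by the keratin gene KRT8 with a mean of 23500. The list was uneven. Another keratin gene, KRT18, had group means of 5720 to 20700 normalized reads. The hormone receptor genes themselves were low, with group means of 46.5 to 117 for ESR1 and 0.0 to 13.3 for PGR. Of 6 immune markers CD68, CD3E and LYZ were not in the table, and the most abundant, CSF1R, averaged 26.2 normalized reads. Of 6 fibroblast and endothelial markers, COL1A2, DCN and PECAM1 were not in the table, and the most abundant was COL1A1 with a mean of 372 normalized reads.

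The sequences of the 4 siRNAs are shown because they define the knock-down and because parts of them recur in the 3′UTRs of several members. Each line gives the sense strand, 5′ to 3′, and the capitals mark the 7 bases that pair with the guide strand's seed (guide bases 2 to 8), the part of a small RNA that can also pair with other mRNAs.
siRNA 1: ggaaagaugcuCAGAGAGauu
siRNA 2: aggagaagcccAAGGUAAauu
siRNA 3: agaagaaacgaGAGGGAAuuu
siRNA 4: agaacagauugCAAAGAAauu
The first 19 bases of each matched the coding sequence of MAP3K21 on the + strand of GRCh38, at chr1:233379030-233379048, chr1:233362204-233362222, chr1:233379276-233379294 and chr1:233376047-233376065, respectively. The 7-base words are common, and 44.3% of 13583 protein-coding genes had at least 1 of the 4 in the 3′UTR of their canonical transcript. Among the members, IL6R held 2 such words (both of siRNA 1), IL6ST 2 (siRNA 4), LIFR 3, and LIF, STAT3 and SOCS3 1 each (siRNA 3). IL6, IL11, CLCF1 and OSMR held none. With knock-down, members with a word and members without one included both called and uncalled genes. Of the members with a word, IL6R was called lower with both treatments and LIF with doxorubicin. SOCS3 (log2 fold change −0.40 with vehicle and −0.52 with doxorubicin), IL6ST (−0.31 and −0.11), STAT3 (0.01 and −0.15) and LIFR (0.30 and 0.00) were not called with either treatment. Of those without a word, IL6 was called lower with doxorubicin. CLCF1 (−0.49 with vehicle and −0.41 with doxorubicin), OSMR (−0.49 and −0.41) and IL11 (−0.43 and 0.18) were not called with either treatment. The 5 sites below, in the 3′UTRs of IL6R (+ strand, chr1:154468538-154468544 and chr1:154469199-154469205), LIF (− strand, chr22:30241737-30241743), SOCS3 (− strand, chr17:78358224-78358230) and STAT3 (− strand, chr17:42313522-42313528), are shown because they include members that were called lower and members that were not, and the capitals mark the word.
IL6R site 1: ctttggtaactCAGAGAGctcttggccct
IL6R site 2: ctgttaattaaCAGAGAGaccttattgga
LIF site: tgagagcagggGAGGGAAggaggcagcag
SOCS3 site: ggaatgtgttgGAGGGAAgggggagtacc
STAT3 site: ccagcccagccGAGGGAAtcccgtgggtt
A match is a description of the sequence, and its part in any change was not tested.

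The promoters of IL6 and IL11 are shown because these were the member cytokine genes that rose with doxorubicin, IL11 in siMLK4 cells. Each run holds the 250 bases before and the 50 bases from the RefSeq transcription start (GRCh38.p14), and capitals mark the motif matches found on either strand.
IL6 promoter (chr7:22726950-22727249, + strand): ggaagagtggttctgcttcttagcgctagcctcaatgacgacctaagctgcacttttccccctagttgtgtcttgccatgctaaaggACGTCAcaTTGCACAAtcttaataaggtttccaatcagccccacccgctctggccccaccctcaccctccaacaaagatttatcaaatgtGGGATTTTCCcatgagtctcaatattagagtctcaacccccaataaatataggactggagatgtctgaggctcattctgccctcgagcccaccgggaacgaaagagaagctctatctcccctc
IL11 promoter (chr19:55370414-55370713, − strand): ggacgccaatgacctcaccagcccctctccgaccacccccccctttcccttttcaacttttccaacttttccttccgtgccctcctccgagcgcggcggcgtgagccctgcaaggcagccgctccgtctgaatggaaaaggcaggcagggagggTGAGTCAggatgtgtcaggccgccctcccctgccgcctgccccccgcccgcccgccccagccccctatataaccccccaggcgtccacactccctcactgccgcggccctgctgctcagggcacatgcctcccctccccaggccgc
Searched were TGANTCA (AP-1), TGACGT (the core of a cAMP response element), TTGCNNAA (C/EBP), TTCNNNGAA (STAT) and an NF-κB consensus. The IL6 window held the cAMP response element core, read on the opposite strand, 163 bases upstream of the start, the C/EBP motif at 155 and the NF-κB consensus at 73, and no AP-1 or STAT motif. The IL11 window held the AP-1 motif 96 bases upstream and none of the others. Over 35116 promoter windows the shares with a match were 7.71% for AP-1, 7.98% for the cAMP response element core, 10.5% for C/EBP, 7.66% for STAT and 11.3% for NF-κB. The STAT motif was found upstream of LIFR and in no window searched of the other members with an entry. For SOCS3 the windows were chr17:78359618-78359917 and chr17:78360876-78361175. Neither covers the bases just before the annotated gene start at 78360077 (− strand), so a STAT motif there was not searched for.

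The members differed widely in level. To compare genes, normalized reads were divided by the length of the canonical transcript. In siNT vehicle cells STAT3 was highest with 475 normalized reads per kb, followed by IL6ST with 409 and OSMR with 360. The SD between libraries was 28.2% of the mean for IL6ST and 22.5% for OSMR, so IL6ST did not differ beyond this spread from its neighbours STAT3 and OSMR in this order. CLCF1 (119 normalized reads per kb), IL6R (115) and SOCS3 (106) formed a middle group whose order was likewise within the spread between libraries. LIF with 31.7, LIFR with 18 and IL11 with 11.6 were lower, and IL6 with 2.34 was lowest. With doxorubicin IL6 reached 444 normalized reads per kb in siNT cells, between OSMR at 506 and SOCS3 at 214, and 97.6 in siMLK4 cells. IL6ST, the shared chain, thus had a higher mean mRNA level than IL6R in every group, from 409 against 115 normalized reads per kb in siNT vehicle cells to 490 against 29.5 in siMLK4 doxorubicin cells.

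**Figure D1:**
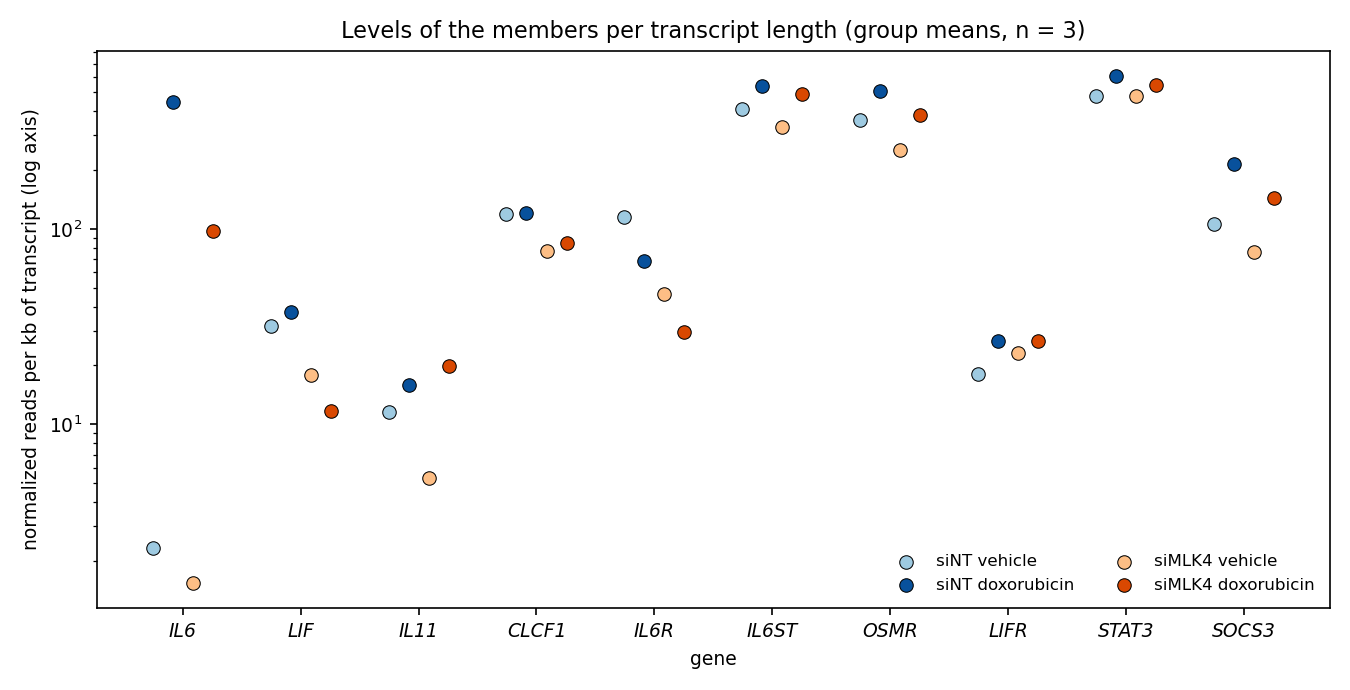
Normalized reads per kb of canonical transcript for the 10 members on a log axis, with 1 point per group (mean of 3 libraries). IL6 spans the widest range, from 1.55 in siMLK4 vehicle cells to 444 in siNT doxorubicin cells, while STAT3, IL6ST and OSMR stay high in all 4 groups.

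The first question was how the axis responded to doxorubicin in control cells. IL6 went from nearly undetected to one of the strongest increases of the whole table, SOCS3 rose 2.02-fold, and the other cytokines moved little. Changes are given as log2 fold changes of the variance-stabilized values with their standard errors (SE) and p-values from limma adjusted over all 17013 genes. Genes with an adjusted p below 0.01 whose log2 fold change exceeded 0.75 in either direction are termed called. In siNT cells 2 of 10 members were called higher and 0 lower, against 12.1% of all genes called higher and 10.6% called lower. The median change of the members was 0.37 and that of all genes 0.00 on the log2 scale.

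In siNT cells IL6 had 4.697, 2.076 and 1.123 normalized reads with vehicle, from 7 reads in all, and 467.9, 482.5 and 550.5 with doxorubicin, from 1524 reads. The groups did not overlap. The ratio of summed reads, scaled for depth, was 193, with a 95% counting interval of 93.4 to 481 that covers counting error only. On the variance-stabilized scale, which compresses the changes of low genes, IL6 rose by 3.92 in log2 units (SE 0.21, adjusted p = 1.6e-08), rank 3 from the top among 17013 genes, and with limma-voom on the recovered reads it was 7.46. In bulk RNA a larger share of cells with IL6 mRNA and more IL6 mRNA per cell cannot be told apart.

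SOCS3, the feedback inhibitor, had 328.8, 256.4 and 282.9 normalized reads with vehicle and 609.1, 575.1 and 572.8 with doxorubicin in siNT cells. Every doxorubicin library lay above every vehicle library, and the mean rose 2.02-fold (log2 fold change 0.91, SE 0.11, adjusted p = 8.3e-06). STAT3 also lay higher in all 3 doxorubicin libraries, with 2816, 3156 and 2951 against 2264, 2331 and 2414 normalized reads. Its log2 fold change of 0.34 (SE 0.10, adjusted p = 0.0075) passed the p threshold and not the fold threshold. STAT3 activity depends on phosphorylation, which mRNA levels do not measure.

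IL6R, the ligand-binding chain for IL-6, moved in the other direction. It had 677.5, 711.2 and 593.9 normalized reads with vehicle and 417.1, 436.7 and 330.5 with doxorubicin, and the groups did not overlap. Limma put the change at −0.68 log2 units (SE 0.13, adjusted p = 0.00067), which is short of the fold threshold, and the doxorubicin mean was 59.7% of the vehicle mean. Among the remaining cytokines LIF had a log2 fold change of 0.18, IL11 of 0.21 and CLCF1 of 0.02, with overlapping groups for all 3 and adjusted p-values above 0.05.

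The same question was asked in siMLK4 cells. IL6, IL11 and SOCS3 were called higher and no member lower, 3 of 10 members against 12.6% of all genes called higher and 10.6% called lower. The median change was 0.39 for the members and 0.02 for all genes. IL6 had 2.004, 0.0 and 3.243 normalized reads with vehicle, from 5 reads, and 92.43, 65.04 and 172.4 with doxorubicin, from 377 reads. The doxorubicin libraries lay above the vehicle libraries, though among themselves they varied more than in siNT cells, with an SD of 50.7% of the mean against 8.82%. The ratio of summed reads was 63.4 (95% counting interval 26.9 to 196) while limma gave a log2 fold change of 2.20 (SE 0.21, adjusted p = 1.2e-06), or 5.93 with limma-voom. Of the libraries with the shared suffix, leaving out replicate 2 gave 2.42 (limma, adjusted p = 1.6e-06) and leaving out replicate 3 gave 1.92 (adjusted p = 1.5e-06).

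IL11, a cytokine that signals through its own receptor chain and gp130, had 12.02, 12.95 and 12.97 normalized reads with vehicle and 53.42, 46.70 and 41.73 with doxorubicin in siMLK4 cells. These groups were far apart, with a 3.74-fold higher mean, and limma gave a log2 fold change of 0.82 (SE 0.13, adjusted p = 0.00011), or 1.85 with limma-voom. In siNT cells IL11 had 35.23, 21.80 and 25.82 normalized reads with vehicle and 44.30, 44.79 and 24.33 with doxorubicin, so the siMLK4 doxorubicin libraries reached the range of the siNT doxorubicin libraries from a lower starting level.

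SOCS3 rose in siMLK4 cells from 213.4, 216.2 and 190.3 to 387.5, 421.1 and 374.7 normalized reads. The groups did not overlap and the mean was 1.91-fold higher (log2 fold change 0.79, SE 0.11, adjusted p = 2.7e-05). Without replicate 3 of the siMLK4 vehicle group the change was 0.75 and no longer called. LIF, in contrast, had 72.14, 70.74 and 64.87 normalized reads with vehicle and 44.09, 37.52 and 54.44 with doxorubicin. All 3 doxorubicin libraries were below the vehicle libraries, and the change of −0.36 (SE 0.12, adjusted p = 0.015) was not called. IL6R was lower with doxorubicin here too, at 150.1, 193.5 and 166.0 against 239.5, 318.8 and 245.4 normalized reads, without overlap and with an uncalled log2 fold change of −0.53 (SE 0.13, adjusted p = 0.0039).

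**Figure D2:**
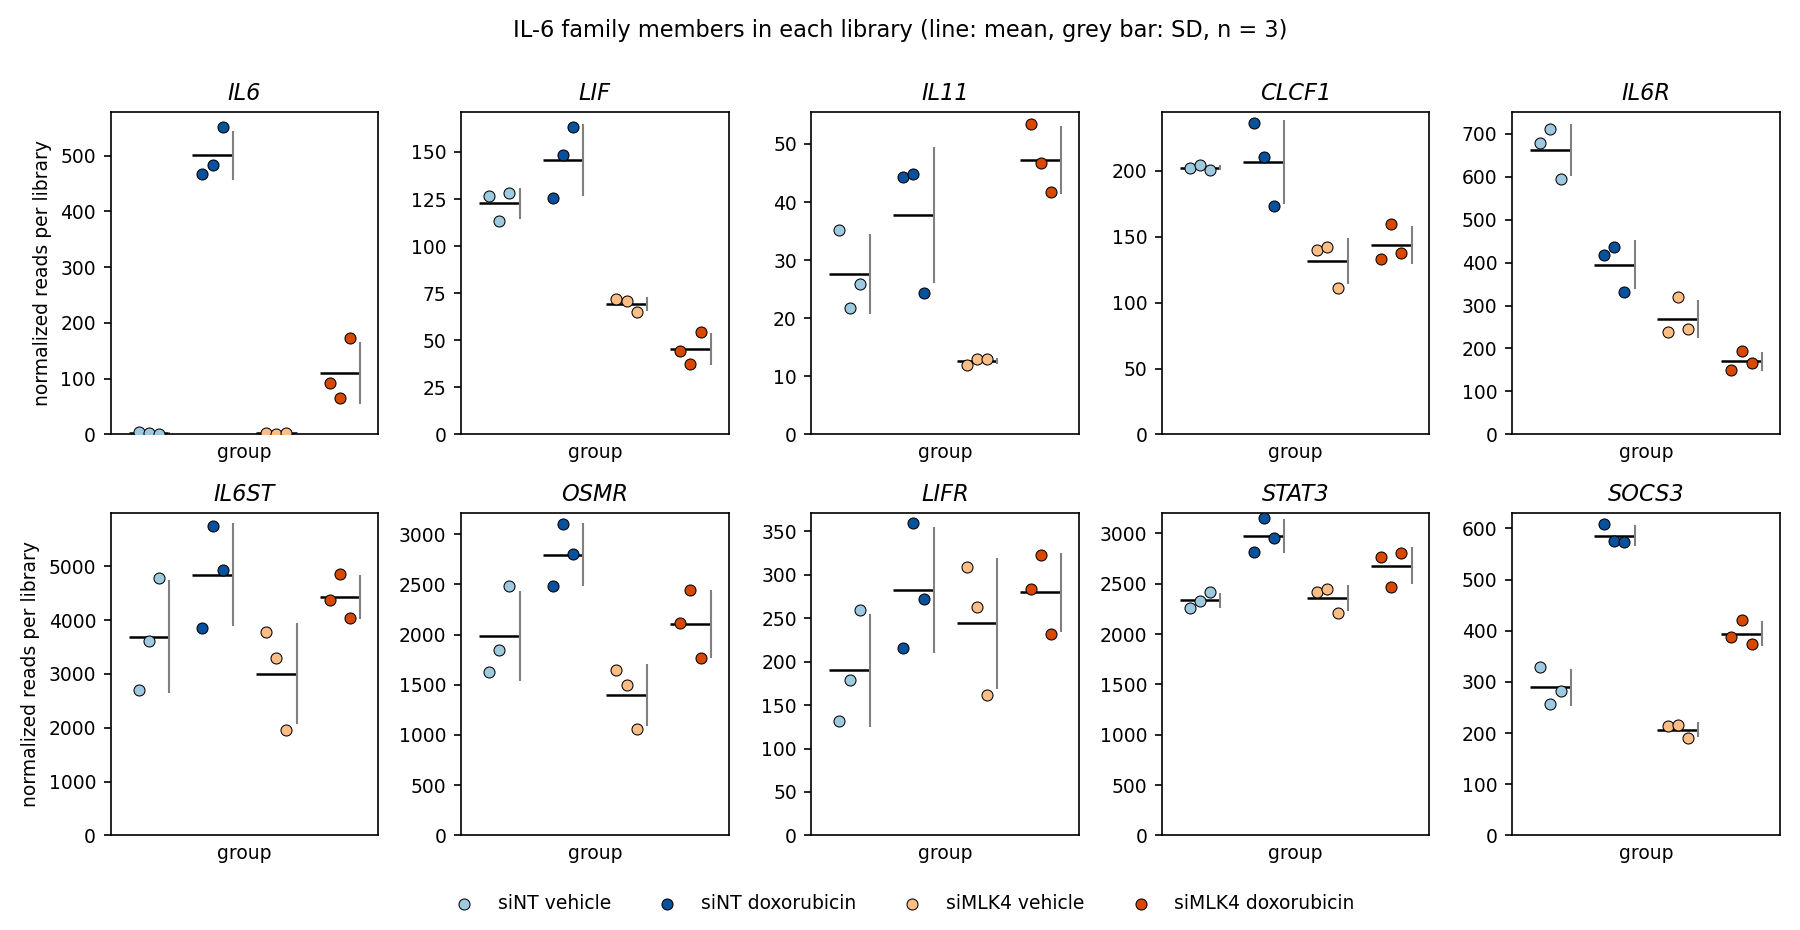
Normalized reads of each member in each of the 12 libraries, with 1 panel per gene, every axis starting at 0, horizontal lines for the group mean and grey bars for ± SD (n = 3). IL6 is near 0 with vehicle and reaches 467.9 to 550.5 in siNT and 65.04 to 172.4 in siMLK4 cells with doxorubicin, and IL6R, LIF and CLCF1 are lower in both siMLK4 groups than in the siNT group with the same treatment.

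The second question was what MLK4 knock-down changed. Without drug, IL6R was the only member called in siMLK4 cells: 0 members were called higher and 1 lower, against 2.51% and 3.14% of all genes. IL6R fell from 677.5, 711.2 and 593.9 to 239.5, 318.8 and 245.4 normalized reads, to 40.5% of the siNT mean, with a log2 fold change of −1.16 (SE 0.13, adjusted p = 3.6e-05). The 2 groups were well separated. LIF, with 126.8, 113.2 and 128.0 normalized reads in siNT against 72.14, 70.74 and 64.87 in siMLK4 cells, was at 56.5% of the siNT mean. Its log2 fold change of −0.56 (SE 0.12, adjusted p = 0.003) was not called, whereas limma-voom gave −0.82 (adjusted p = 0.0044), which was. CLCF1, a ligand of the ciliary neurotrophic factor receptor, had 202.0, 204.5 and 200.9 against 140.3, 142.5 and 111.4 normalized reads (log2 fold change −0.49, SE 0.12, adjusted p = 0.0088). SOCS3 (−0.40, adjusted p = 0.013) and IL11 (−0.43, adjusted p = 0.028) were also lower in all 3 siMLK4 libraries than in any siNT library and were not called. IL6 could not be compared without drug at this depth, with 5 reads in siMLK4 and 7 in siNT cells. The median change of the members was −0.41 against 0.01 for all genes.

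With doxorubicin, IL6, LIF and IL6R were called lower in siMLK4 cells and none higher, 3 of 10 members against 2.93% of all genes called lower and 2.66% called higher. The median change was −0.41 for the members and 0.02 for all genes. IL6 at 92.43, 65.04 and 172.4 normalized reads in siMLK4 against 467.9, 482.5 and 550.5 in siNT cells was at 22.0% of the siNT mean (log2 fold change −1.85, SE 0.21, adjusted p = 3.1e-05). LIF, which acts through LIFR and gp130, had 44.09, 37.52 and 54.44 against 125.5, 148.6 and 163.2 normalized reads. That is 31.1% of the siNT mean, with a log2 fold change of −1.10 (SE 0.12, adjusted p = 2e-05), or −1.69 with limma-voom. For both cytokines the highest siMLK4 library lay below the lowest siNT library.

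IL6R was called lower here too, at 150.1, 193.5 and 166.0 against 417.1, 436.7 and 330.5 normalized reads. Its mean was 43.0% of that in siNT cells, with no overlap (log2 fold change −1.02, SE 0.13, adjusted p = 0.00013). SOCS3 had 387.5, 421.1 and 374.7 against 609.1, 575.1 and 572.8 normalized reads. The groups were separate and the mean was at 67.3% of the siNT mean, while the change of −0.52 (SE 0.11, adjusted p = 0.0031) was below the fold threshold. CLCF1 at 133.1, 160.1 and 137.9 against 236.2, 210.7 and 173.4 normalized reads was lower in all 3 libraries and not called (−0.41, SE 0.12, adjusted p = 0.024). STAT3 had 2764, 2470 and 2809 against 2816, 3156 and 2951 normalized reads, a log2 difference of −0.15 that was not called, and IL11 was not lower (0.18). The comparisons with doxorubicin share libraries with those between doxorubicin and vehicle, so the same siMLK4 doxorubicin values enter both.

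**Figure D3:**
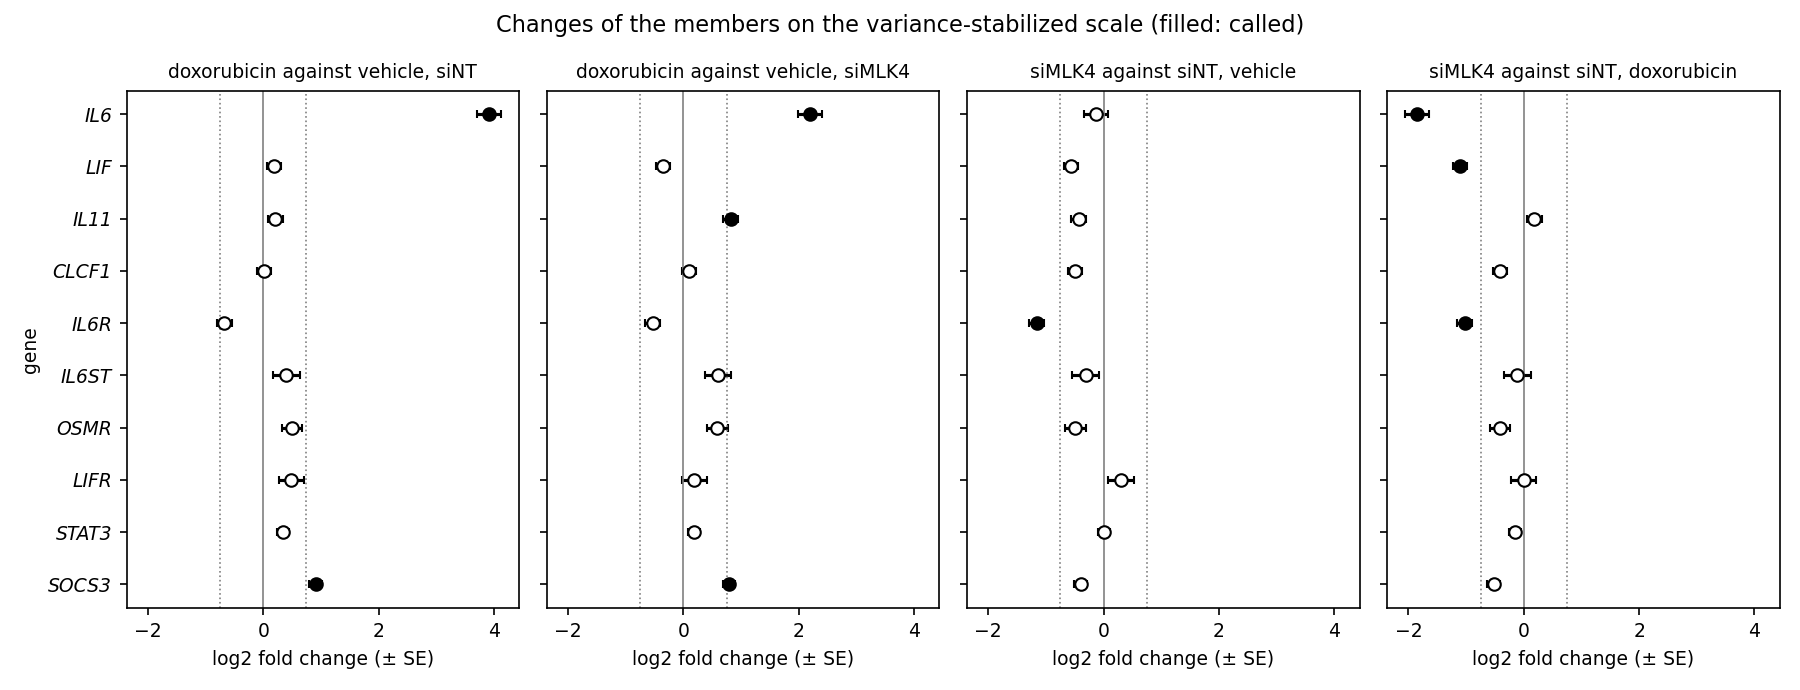
Log2 fold changes with SE of the 10 members on the variance-stabilized scale in the 4 comparisons, with filled points for called genes and dotted lines at the fold threshold of 0.75. IL6 is the largest change in both doxorubicin panels (3.92 and 2.20), and IL6R is called in both knock-down panels (−1.16 and −1.02).

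The third question was whether the doxorubicin response itself differed between siMLK4 and siNT cells. By limma's interaction term no member was called, against 0.0999% of all genes called higher and 0.176% called lower. These shares themselves were unstable, since 0 genes were called in either direction without replicate 1 of the siMLK4 doxorubicin group and 3 in each without replicate 2 of the siNT doxorubicin group, against 17 and 30 with all libraries. IL6, LIF and IL11 passed an unadjusted p of 0.05, so 3 of 10 against 14.5% of all genes, and limma-voom also called 0 members. IL6 had the largest difference of the responses, −1.72 on the log2 scale (SE 0.29, adjusted p = 0.011), rank 3 from the bottom of 17013 genes. With the replicate number as a block the adjusted p was 0.0099, which passed the threshold, and without replicate 3 of the siMLK4 doxorubicin group the difference was −1.99 (adjusted p = 0.0025). On 2 other scales it was not called, at −1.54 (SE 1.10, adjusted p = 0.61) with limma-voom and −1.77 (SE 0.71, adjusted p = 0.26) on log2(normalized reads + 1). The fold of IL6 rests on 7 and 5 vehicle reads, and the counting intervals of the ratios, 93.4 to 481 in siNT and 26.9 to 196 in siMLK4 cells, overlap. The level reached with doxorubicin differed between siRNAs, whereas a difference in the fold of the reads was not resolved at this depth. LIF differed by −0.54 (SE 0.16, adjusted p = 0.12) and IL11 by 0.61 (SE 0.19, adjusted p = 0.13).

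The remaining receptor chains IL6ST, OSMR and LIFR were called in none of these comparisons, and their libraries spread widely. IL6ST had 2695, 3610 and 4777 normalized reads in siNT vehicle, 3846, 5752 and 4920 in siNT doxorubicin, 3772, 3288 and 1954 in siMLK4 vehicle and 4380, 4851 and 4042 in siMLK4 doxorubicin libraries. OSMR had 1626, 1850 and 2488, then 2485, 3106 and 2800, then 1643, 1494 and 1055, and 2117, 2439 and 1762 in the same order. LIFR had 131.5, 178.6 and 259.3, then 215.9, 359.3 and 271.7, then 308.6, 263.1 and 161.1, and 284.1, 322.7 and 232.3. The same libraries were high or low for all 3 genes: replicate 3 was highest in the siNT vehicle group and lowest in the siMLK4 vehicle group. Across the 12 libraries the deviations from the group means correlated at 0.98 between LIFR and IL6ST, 0.97 between LIFR and OSMR and 0.95 between OSMR and IL6ST. These points share their library, and so its depth and RNA.

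This spread moved with a property of each library. The slope of a library's values on log2 transcript length, taken over 16957 genes, ran from −0.082 in replicate 3 of siMLK4 vehicle to 0.0857 in replicate 3 of siNT vehicle. Within groups it correlated at 0.99 with IL6ST, 0.98 with LIFR and 0.96 with OSMR, whose transcripts are 9027, 10553 and 5526 bases long. For IL6R, with 5764 bases, the correlation was 0.00, and for IL6 it was −0.46. With the slope as a covariate, an alternative chosen after seeing the data, the SE of IL6ST fell and its doxorubicin response was 0.67 in siNT (SE 0.07, adjusted p = 6e-07) and 0.73 in siMLK4 cells (SE 0.06, adjusted p = 1.8e-07). OSMR, the oncostatin M receptor chain, then had responses of 0.69 (adjusted p = 2.1e-06) and 0.68 (adjusted p = 1.7e-06), and its differences between siMLK4 and siNT cells were −0.42 with vehicle (adjusted p = 0.00045) and −0.43 with doxorubicin (adjusted p = 0.00033). LIFR responded by 0.73 in siNT (adjusted p = 7e-06) and by 0.31 in siMLK4 cells (adjusted p = 0.0067). LIFR also differed between siMLK4 and siNT cells with vehicle, by 0.40 (SE 0.09, adjusted p = 0.0025), higher in siMLK4 cells and so opposite to OSMR. All of these passed the p threshold and none the fold threshold of 0.75. Without the covariate the doxorubicin responses were 0.40 and 0.60 for IL6ST, 0.50 and 0.59 for OSMR and 0.49 and 0.19 for LIFR. What gives the libraries their slopes was not tested.

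**Figure D4:**
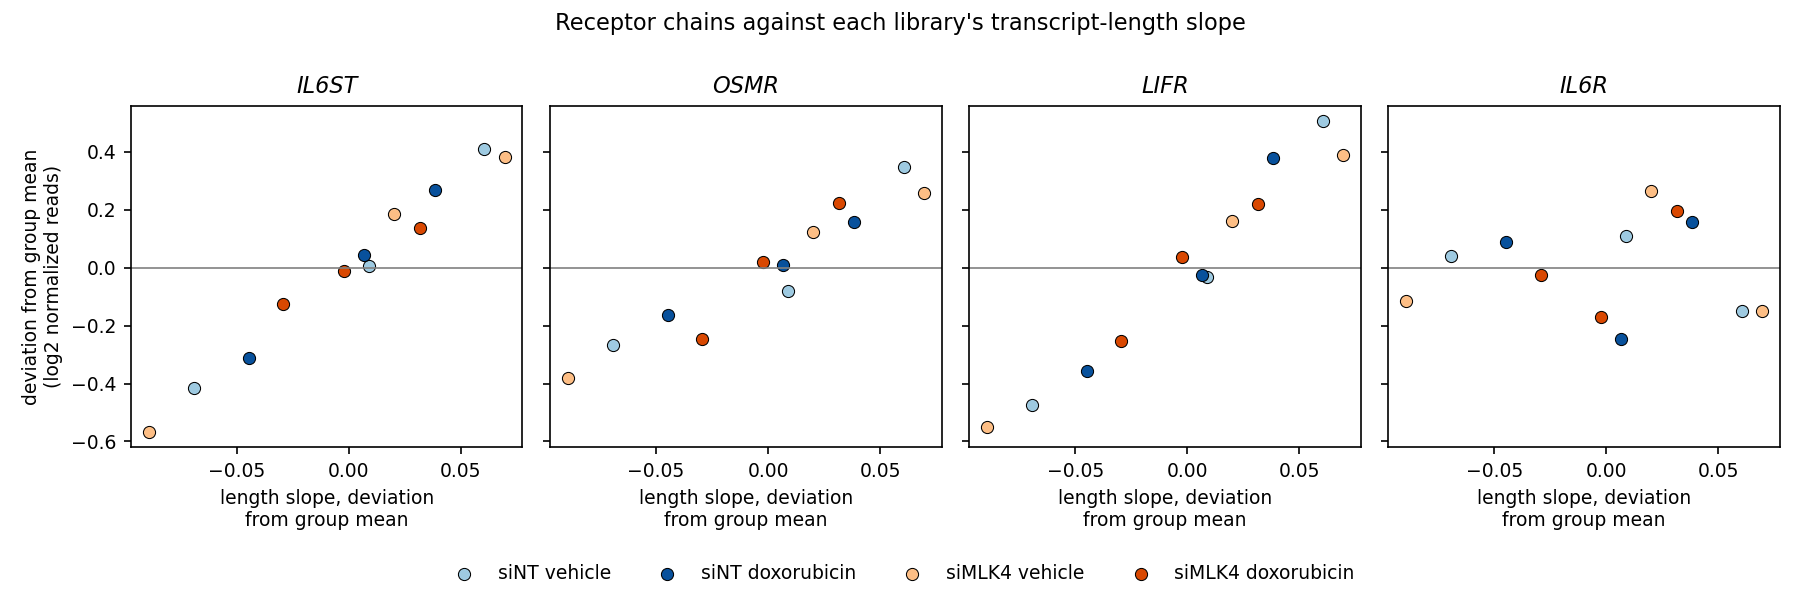
Deviation of log2 normalized reads from the group mean (y axis) against the deviation of each library's slope on log2 transcript length from the group mean (x axis) for the receptor chains, with 1 point per library coloured by group. The points of IL6ST, OSMR and LIFR rise with the slope (correlations of 0.99, 0.96 and 0.98) and those of IL6R do not (0.00).

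The rest of the pathway was read from lists of genes. For comparison, 12.1% of all genes were called higher and 10.6% lower with doxorubicin in siNT cells, and 12.6% and 10.6% in siMLK4 cells. Between siMLK4 and siNT cells the shares were 2.51% and 3.14% with vehicle and 2.66% and 2.93% with doxorubicin. Among the other family cytokines, CTF1 (cardiotrophin 1) rose in siNT cells from 26.8 ± 8.98 to 82.4 ± 9.91 normalized reads (SD, n = 3, log2 fold change 0.90, adjusted p = 5.1e-05) and from 17.7 ± 4.96 to 68.2 ± 5.49 in siMLK4 cells (0.97, adjusted p = 2.8e-05).

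Of 6 other receptor chains and receptor sheddases 5 were measured. With doxorubicin 1 was called higher and 0 lower in siNT cells, against 12.1% and 10.6% of all genes. In siMLK4 cells 1 was called in each direction, against 12.6% higher and 10.6% lower. CNTFR, the receptor chain for CNTF and CLCF1, had 0 reads in all 3 siNT vehicle libraries, which allows up to 3 reads in each. It had 33.9 ± 11.8 normalized reads in siNT doxorubicin, 1.03 ± 0.0474 in siMLK4 vehicle and 120 ± 53.5 in siMLK4 doxorubicin libraries. Both increases were called (adjusted p = 1.9e-05 and 5.9e-07), as was the higher level in siMLK4 with doxorubicin (adjusted p = 0.0014). IL27RA, a chain that pairs with gp130 for IL-27, was called lower with doxorubicin in siMLK4 cells, from 640 ± 31.8 to 261 ± 45.2 normalized reads (−1.16, adjusted p = 4.1e-06). In siNT cells it went from 620 ± 71.0 to 416 ± 38.5 (−0.52, adjusted p = 0.0028), and the interaction was not called (−0.64, adjusted p = 0.094). The medians of the 5 genes were −0.28 and −0.19.

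All 10 kinases, adaptors and other STATs were measured, and the only one called was SHC1, an adaptor of the Ras pathway. It fell from 2760 ± 369 to 1100 ± 9.21 normalized reads with doxorubicin in siNT (−1.28, adjusted p = 6.3e-07) and from 3270 ± 315 to 1210 ± 31.7 in siMLK4 cells (−1.40, adjusted p = 3.4e-07). JAK1, JAK2 and TYK2 were thus not called in any comparison, and the medians of the list with doxorubicin were 0.02 and 0.16. Among 11 other SOCS genes and negative regulators, also all measured, SOCS1 was the only one called. It was higher in siMLK4 than in siNT vehicle cells, at 46.3 ± 9.25 against 14.7 ± 7.99 normalized reads (0.76, SE 0.15, adjusted p = 0.0022), opposite in sign to SOCS3. The medians of these 11 genes with doxorubicin were −0.11 and −0.03.

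Of 24 known STAT3 targets 17 were measured. With doxorubicin BCL6, ICAM1 and IRF1 were called higher in both siNT and siMLK4 cells, and VEGFA was called lower in siNT cells. ICAM1, an adhesion molecule that is also an NF-κB target, rose from 158 ± 6.53 to 593 ± 28.2 normalized reads in siNT (1.63, adjusted p = 7e-08) and from 244 ± 32.8 to 516 ± 31.8 in siMLK4 cells (0.95, adjusted p = 5.8e-06). IRF1, an interferon response factor, rose by 1.30 and 1.24 on the log2 scale (adjusted p = 1.6e-06 and 2.3e-06), and BCL6, a transcriptional repressor, by 1.22 and 1.09 (adjusted p = 8.2e-06 and 2.2e-05). Without drug, VEGFA and PIM1 were called lower in siMLK4 cells. VEGFA, the angiogenic growth factor, had 4520 ± 1960 normalized reads in siNT vehicle and 898 ± 200 in siMLK4 vehicle cells (−2.17, adjusted p = 5.2e-05), against 1200 ± 88.8 and 904 ± 84.6 with doxorubicin. PIM1, a survival kinase, had 717 ± 192 and 333 ± 53.0 with vehicle (−0.98, adjusted p = 0.00051), and 449 ± 24.4 and 489 ± 6.55 with doxorubicin. None of the 17 was called between siMLK4 and siNT with doxorubicin, nor by limma's interaction term, where VEGFA (1.78, adjusted p = 0.033), PIM1 (1.09, adjusted p = 0.028) and ICAM1 (−0.68, adjusted p = 0.042) were nearest. The medians of the 17 targets with doxorubicin were −0.12 in siNT and 0.23 in siMLK4 cells. Several of these genes have other known inducers, and the list does not measure STAT3 activity.

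The 9 genes that control the decay or stability of cytokine mRNAs were all measured. ARID5A, an RNA-binding protein known to stabilize IL6 mRNA, rose in siMLK4 cells from 83.3 ± 12.3 to 316 ± 77.4 normalized reads (1.46, SE 0.22, adjusted p = 6.1e-05) and went from 106 ± 39.8 to 192 ± 53.8 in siNT cells (0.66, adjusted p = 0.018). HNRNPD, an AU-rich element binding protein that promotes mRNA decay, fell from 10000 ± 776 to 4330 ± 701 in siNT (−1.21, adjusted p = 3.6e-05) and from 8730 ± 487 to 3410 ± 964 in siMLK4 cells (−1.38, adjusted p = 1.2e-05). ZFP36L1, another decay factor, was higher in siMLK4 than in siNT doxorubicin cells, at 2770 ± 443 against 1610 ± 313 normalized reads (0.76, SE 0.18, adjusted p = 0.0062). The medians of the list with doxorubicin were 0.01 and 0.20.

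The genes whose pattern over the 12 libraries was most like that of IL6 were sought among 12380 genes with a mean of at least 50 normalized reads. Pearson correlations on the deposited scale were 0.988 for HNRNPLL, 0.985 for TSC22D1, 0.982 for OTUB2 and EGLN3 and 0.981 for JHY. These values mainly reflect the 4 group means, and the libraries share their depth and RNA. EGLN3, an oxygen-sensing prolyl hydroxylase, for example had 144 ± 29.7 normalized reads in siNT vehicle, 1040 ± 135 in siNT doxorubicin, 130 ± 14.7 in siMLK4 vehicle and 430 ± 9.39 in siMLK4 doxorubicin cells. TSC22D1, a transcriptional regulator, had 1790 ± 214, 4640 ± 94.6, 1590 ± 106 and 2750 ± 96.4 in the same order.

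Cell type markers also moved with treatment. The summed level of the 8 basal epithelial markers was 70800 to 76200 normalized reads in siNT vehicle and 39200 to 43800 in siNT doxorubicin libraries. It was 65900 to 70900 in siMLK4 vehicle and 27900 to 31500 in siMLK4 doxorubicin libraries. With doxorubicin 5 of the 8 were called lower in each siRNA group (median −1.25 in both), against 10.6% of all genes in each. The 6 luminal and hormone receptor markers, led by KRT8, summed to 37800 to 50400 normalized reads in siNT vehicle and 36400 to 46000 in siNT doxorubicin libraries. Their sums were 34200 to 44100 in siMLK4 vehicle and 22300 to 33300 in siMLK4 doxorubicin libraries. With doxorubicin 1 was called higher and 1 lower in siNT cells, against 12.1% and 10.6% of all genes. In siMLK4 cells 1 was called higher and 2 lower, against 12.6% and 10.6%. The 3 measured immune markers, PTPRC, CD14 and CSF1R, summed to 38.7 to 49.4 normalized reads in siNT vehicle, 61.1 to 75 in siNT doxorubicin, 58.1 to 77.8 in siMLK4 vehicle and 57.7 to 79.2 in siMLK4 doxorubicin libraries, and with doxorubicin in siMLK4 cells PTPRC was called higher (0.84, adjusted p = 0.00018), while CSF1R (−0.67, adjusted p = 0.00028) and CD14 (0.22, adjusted p = 0.13) were not called. Among the 8 basal markers, KRT14 and KRT6A were called lower with knock-down under both treatments and KRT17 with doxorubicin. These are 2 and 3 of 8, against 3.14% of all genes with vehicle and 2.93% with doxorubicin. No basal marker was called higher, though 3 had a positive change with vehicle and 2 with doxorubicin. KRT5, the most abundant, rose with vehicle (0.64, limma adjusted p = 0.0074, not called) and was at −0.32 with doxorubicin. The 3 fibroblast and endothelial markers, COL1A1, PDGFRB and VWF, summed to 296 to 362 normalized reads in siNT vehicle, 289 to 313 in siNT doxorubicin, 549 to 659 in siMLK4 vehicle and 384 to 548 in siMLK4 doxorubicin libraries, and COL1A1 was called higher with knock-down in vehicle (0.78, adjusted p = 0.00041). The part of these shifts in the changes of the members was not tested. The share of higher and lower calls also depended on scaling: when scaled by library totals instead, 2848 genes were called higher and 1094 lower with doxorubicin in siNT cells, against 2060 and 1799, and the median of all genes shifted to 0.18. In siMLK4 cells the calls were 2888 and 1275 against 2147 and 1802, with a median of 0.16. For knock-down they were 632 and 346 against 427 and 534 with vehicle and 623 and 396 against 452 and 498 with doxorubicin. No called member changed direction under either other scaling. At an adjusted p under 0.05 with no fold threshold, 5 members passed with doxorubicin in siNT and 7 in siMLK4 cells, against 57.3% and 57.9% of all genes. For knock-down 5 members passed with vehicle and 5 with doxorubicin, against 25.8% and 24.8%, and by the interaction 1 passed, against 1.2%.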

How the data were processed

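Total RNA of HCC1806 cells transfected in triplicate was enriched for poly(A) RNA and sequenced (12 libraries). According to their methods and processing notes, the authors used Trimmomatic 0.39 for trimming, HISAT2 for mapping, strand-specific HTSeq 0.6.0 for counting after removal of optical duplicates, and DESeq2 1.26.0. The processing notes name hg19 and the supplementary methods GRCh38. Coordinates here come from GRCh38 annotation and not from the deposited table. The deposited values for 17013 genes are variance-stabilized and log2-like, a transformation recognized from the values. Inverting it gave whole reads for 100% of values within a tolerance of 0.05, and these divided by the authors' size factors are the normalized reads. Genes absent from the table were not analysed here. Some genes of the lists are not reported here.

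Limma 3.58.1 in R 4.3.3 (lmFit, eBayes with a variance trend) was fitted on the deposited log2 values of all 12 libraries with 4 group means (Benjamini-Hochberg adjustment over all genes). No other value columns were present. As a check for libraries deposited more than once, the reads of each pair within a group were compared, and the lowest chi-square over its degrees of freedom was 7.006, so each library counted as 1 sample. Transfections in triplicate are the only replicate level stated, so p-values measure the spread between these libraries. Equally numbered libraries deviated together between siNT vehicle and doxorubicin (correlations 0.46, 0.105 and 0.205) and between siNT and siMLK4 with doxorubicin (0.19, 0.516 and 0.559), a pairing read from values alone. Not every pair was over 0.1 between siMLK4 vehicle and doxorubicin (−0.077, 0.176 and 0.337) or between siNT and siMLK4 with vehicle (−0.723, 0.325 and −0.523). Intervals at 95% (Clopper-Pearson on the split of reads) are for counting error alone, because there were no molecular identifiers.

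Named are the 10 members, MAP3K21, the called genes of each list, and the 5 genes most correlated with IL6. The members and lists were chosen with earlier results of these data known. Transcript lengths, 3′UTRs and seed matches are from GENCODE canonical transcripts. Promoters are from a set built on RefSeq starts, and the set used here held no entry for LIF and CLCF1. Of the 50-base stretches of a member's transcripts at most 2.1% (IL6ST) occur in another gene. Alternatives were TMM and library-total scaling, a minimum of 10 reads per library, only the groups compared, a replicate block, other thresholds, limma-voom, log2(normalized reads + 1), no variance trend and leaving out each library.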

Additional observations from a re-analysis of the deposited data

Results flagged for a closer look

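The doxorubicin response of IL6 differed between siMLK4 and siNT cells at −1.72 on the log2 scale (SE 0.29, limma adjusted p = 0.011), a difference between groups under the same contrast that passed an adjusted p of 0.05 and not the threshold of 0.01. IL6 was higher with doxorubicin in 3 of 3 libraries of both siRNA groups. The adjusted p over the alternatives ran from 0.0023 to 0.61.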

How the results depend on the processing

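Over the alternatives, 1007 of the values kept their direction and their side of the threshold, 6 passed it only under an alternative, 1 no longer passed it and 21 changed sign. At an adjusted p under 0.05 with no fold threshold the members called were 5, 7, 5, 5 and 1 (doxorubicin in siNT, doxorubicin in siMLK4, knock-down with vehicle, knock-down with doxorubicin and the interaction), against 57.3, 57.9, 25.8, 24.8 and 1.2% of all genes, compared with 2, 3, 1, 3 and 0 members, since a wider threshold was used. At a fold threshold of 1 they were 1 and 1 for doxorubicin in siNT and siMLK4, against 12.2 and 12.7% of all genes. With a minimum of 10 reads per library, which leaves out IL6, they were 1, 2, 1, 2 and 0, against 22.1, 21.9, 6.33 and 6.24% of 13295 genes for doxorubicin and knock-down. Limma-voom and log2(normalized reads + 1) each gave 2 for knock-down with vehicle, adding LIF. The interaction of IL6 was called with the replicate block (1 member, adjusted p = 0.0099) and with the length slope as covariate, chosen after seeing the data (1 member), and without replicate 3 of siMLK4 doxorubicin, and the cause was not tested. The block changed no other call of a member. Without each library in turn the members called ranged from 2 to 2, 2 to 3, 1 to 1, 3 to 3 and 0 to 1. The changes of sign were near 0 and uncalled throughout: CLCF1 with doxorubicin in siNT (−0.01 with TMM, −0.07 to 0.11 without single libraries), LIFR between siRNAs with doxorubicin (−0.03 with the slope, −0.15 to 0.16 without single libraries) and the interaction of OSMR (−0.01 with the slope, −0.10 to 0.22). The others came from leaving out single libraries: LIFR with doxorubicin in siMLK4 (−0.03 to 0.35), IL6 (−0.23 to 0.01) and STAT3 (−0.01 to 0.06) between siRNAs with vehicle, IL6ST between siRNAs with doxorubicin (−0.27 to 0.02) and the interactions of CLCF1 (−0.02 to 0.16) and IL6ST (−0.08 to 0.40). Over all genes, limma-voom called 786 higher and 697 lower for knock-down with vehicle and 743 and 723 with doxorubicin, against 427 and 534 and 452 and 498, a fit of only the groups compared called 251 and 360 with vehicle, and the slope covariate called 127 and 104 by the interaction, against 17 and 30. Interaction calls over all genes moved by over 1.5 times in at least 1 direction without any 1 library other than replicate 3 of siMLK4 vehicle or of siMLK4 doxorubicin, down to 0 without replicate 1 of siMLK4 doxorubicin. OSMR with doxorubicin in siMLK4 was called with library totals (0.77).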
